A study of Mus musculus with 6 samples.

Results

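The genes described here are 41 genes of double-strand break repair and of the Fanconi pathway, chosen by name from knowledge of their function. The deposited table listed all 41 among its 37755 entries, each on an entry of its own. All 41 had a mean of at least 1 FPKM, the level required for a test, as did 12461 entries in all. FPKM counts sequenced fragments per kilobase of exon model, scaled to the mapped fragments of the library, so a value is relative to both gene length and library size. The comparison is of mammary epithelial cells with tumor cells that lack the kinase JNK, and the study looked at DNA repair genes within it.

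The 6 RNA libraries came from 3 primary cultures of mammary epithelium (MEC) and from 3 MEKO tumor cell lines, which are named by number (199, 233 and 336). All mice were labelled as strain C57/Bl6J, and all 6 cultures carried Cre recombinase under the Wap promoter, which is active in luminal cells of the gland in pregnancy and lactation. The MEC genotype was WAPCre+, and each preparation pooled 3 to 5 virgin females at an age of 10 to 12 weeks. These cells were grown on collagen I with EGF and insulin, and RNA was taken near confluence. The MEKO genotype was Mapk8KO Mapk9KO Cre+, with both JNK genes deleted by Cre. These lines came from tumors of mice that had borne litters, were passed 2 times on collagen I and were then kept in ordinary dishes. The paper describes a medium with fetal bovine serum for the lines, and no age is listed in the labels for the tumor mice. Genotype, tumor origin, parity, culture medium and time in culture changed together, so they cannot be told apart. Separate preparations and lines stand as replicates, and the labels give no batch.

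A double-strand break is first bound by sensor proteins and by the kinases ATM and ATR, which halt the cell cycle and mark the surrounding chromatin. It is then either joined end to end by the Ku proteins, DNA-PK and ligase IV, or cut back and copied from the sister chromatid by homologous recombination, which needs BRCA1, BRCA2 and their partners. The Fanconi pathway excises crosslinks between the DNA strands, with FANCD2 and FANCI loaded onto DNA by a ubiquitin ligase complex, and it hands the resulting break to recombination. Many genes of recombination and of the Fanconi pathway are transcribed mainly in cycling cells, and inherited loss of several of them raises the risk of breast cancer.

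*Mapk8* had 19.2 to 25.1 FPKM in MEC and 1.37 to 5.93 FPKM in MEKO, and *Mapk9* had 21.5 to 24.4 FPKM and 3.07 to 7.62 FPKM. Both deleted genes therefore ran with the labels. Summed FPKM of a library lay between 557991 and 638365, and read numbers are unknown. The luminal markers (*Krt8*, *Krt18*, *Krt19*, *Epcam* and *Cdh1*) summed to 5308 to 8869 FPKM in MEC and to 789 to 1962 FPKM in MEKO, and all 5 were lower in each line than in each MEC library. The 5 basal markers summed to 1256 to 2237 FPKM in MEC and to 9.90 to 1865 FPKM in MEKO. Of these, *Krt5*, *Krt14* and *Trp63* were above all MEC libraries in line 199 and below all of them in lines 233 and 336. *Acta2* and *Myh11* were lower in each line than in each MEC library. *Myh11* was at or below 0.0812 FPKM in the lines against 22.4 to 41.8 FPKM in MEC. Fibroblast markers summed to 95.7 to 179 FPKM in MEC and to 1.82 to 1081 FPKM in MEKO. Line 199 held the highest MEKO value for both lists. Of the fibroblast markers, *Col1a1* and *Col1a2* made up most of its sum, at 599.7 and 408 FPKM, while *Dcn* and *Lum* were lower in each line than in each MEC library. Endothelial markers summed to 1.47 to 12.8 FPKM in MEC and to 0.159 to 0.430 FPKM in MEKO, leukocyte markers to 20.2 to 39.8 FPKM and 0.795 to 23.5 FPKM, and adipocyte markers to 1.28 to 11.7 FPKM and 0.0898 to 1.17 FPKM. The leukocyte sum in line 336 was nearly all *Cd68*, at 23.5 FPKM, and *Lyz2* was at 0.0182 FPKM there against 16.5 to 32.9 FPKM in MEC. *Cd3e* was at or below 0.0408 FPKM in every library, and *Plin1* was listed at 0. The adipocyte sum in MEC was therefore all *Fabp4*, since *Adipoq* was also at 0 there. *Adipoq* had 0.0475, 0 and 0.155 FPKM in lines 199, 233 and 336. In these bulk samples fewer cells of a type and less RNA per cell cannot be told apart, and the part of other cells in the levels below was not tested.

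Promoter sequence was available for 32 of the 41 genes, from RefSeq on GRCm38.p6, as 250 bases before to 50 bases after each start. These were searched on both strands for 4 E2F words (TTTCCCGC, TTTCGCGC, TTTGCCGC and TTTGGCGC), the kind of word through which E2F factors drive genes of S phase. At least 1 word was in 7 of 32 repair genes (21.9%), against 440 of 8936 tested genes with a promoter in the table (4.92%) and 2.26% of all 32851 promoters. It was in 2 of 10 S-phase repair genes, defined below, and in 5 of the 22 others. Stretches that hold the word are shown because they mark the repair genes whose promoters share it, and the capitals mark the word or its reverse complement. All 30 bases shown for *Fancg* and for *Xrcc6* lie in annotated exons, and GENCODE M21 starts both genes before these bases. In each of the 7 genes the word was TTTCCCGC, and it began 209 bases before the RefSeq start in *Bard1*, 168 in *Brca2*, 152 in *Chek2*, 52 in *Fancg*, 46 in *Xrcc6*, 16 in *Mdc1* and 5 in *Rad51c*.
Bard1 (chr1:71103134-71103221, minus strand): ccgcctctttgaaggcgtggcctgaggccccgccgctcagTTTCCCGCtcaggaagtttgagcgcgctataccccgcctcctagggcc
Brca2 (chr5:150522413-150522500, plus strand): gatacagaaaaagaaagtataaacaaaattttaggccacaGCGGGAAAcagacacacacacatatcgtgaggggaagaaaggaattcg
Chek2 (chr5:110839791-110839878, plus strand): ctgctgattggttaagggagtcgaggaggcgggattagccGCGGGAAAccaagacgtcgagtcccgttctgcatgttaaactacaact
Fancg (chr4:43010335-43010364, minus strand): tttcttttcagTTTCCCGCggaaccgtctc
Xrcc6 (chr15:82016312-82016341, plus strand): agggggtggaaGCGGGAAAtgcgagtgggc
Mdc1 (chr17:35841442-35841497, plus strand): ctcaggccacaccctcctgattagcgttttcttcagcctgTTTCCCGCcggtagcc
Rad51c (chr11:87404952-87404999, minus strand): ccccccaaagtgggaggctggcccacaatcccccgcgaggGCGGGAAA

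The *Brca1* promoter held none of the 4 E2F words and is shown with its CCAAT box in capitals, since *Brca1* is among the genes that lay apart between the groups.
Brca1 (chr11:101551997-101552081, minus strand): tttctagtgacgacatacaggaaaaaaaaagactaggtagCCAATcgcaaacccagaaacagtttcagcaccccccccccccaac
CCAAT was in 16 of the 32 repair genes and in 43.3% of tested genes. The words TTTGAA and TTCGAA, which occur in promoters of mitotic genes, were in 3 of the 32 and in 16.1% of tested genes. The AP1 word TGACTCA, a binding site of the JNK target JUN, was in 0 of the 32 and in 4.74% of tested genes. A match is a run of letters, not a bound site.

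Expression was compared as log2(FPKM + 1) with limma, and a gene was called when its Benjamini-Hochberg adjusted p over all 12461 tested genes was under 0.05 and its log2 fold change was beyond 0.75. On this scale the change of weakly expressed genes is understated. The limma test called 0 of the 41 repair genes, in either direction, while it called 2.64% of tested genes higher and 7.26% lower in MEKO. The smallest limma adjusted p among them was 0.070, for *Slx4*. At an unadjusted p under 0.05, 7 repair genes were higher (17.1%) and 0 were lower, against 12.4% and 15.7% of tested genes. The estimated log2 fold change had a median of 0.36, against 0.01 over all tested genes. It was above 0 in 36 genes (87.8%, against 51.2% of tested genes) and below 0 in 5. It reached from -0.20 for *Rad50* to 0.82 for *Fancd2*. In 12 genes all 3 lines lay above all 3 MEC libraries (29.3%, against 18.5% of tested genes), and in 0 genes they all lay below (18.7% of tested genes). The 12 were *Brca1*, *Brca2*, *Xrcc3*, *Mre11a*, *Exo1*, *Fancd2*, *Fanci*, *Slx4*, *Atm*, *Atr*, *Rif1* and *Prkdc*. For each of the 12 the exact permutation test (two-sided) gave p = 0.1, the smallest that 3 libraries against 3 allow. Any gene whose groups lie apart gives this value, so the test adds nothing to the separation.

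**Figure D1:**
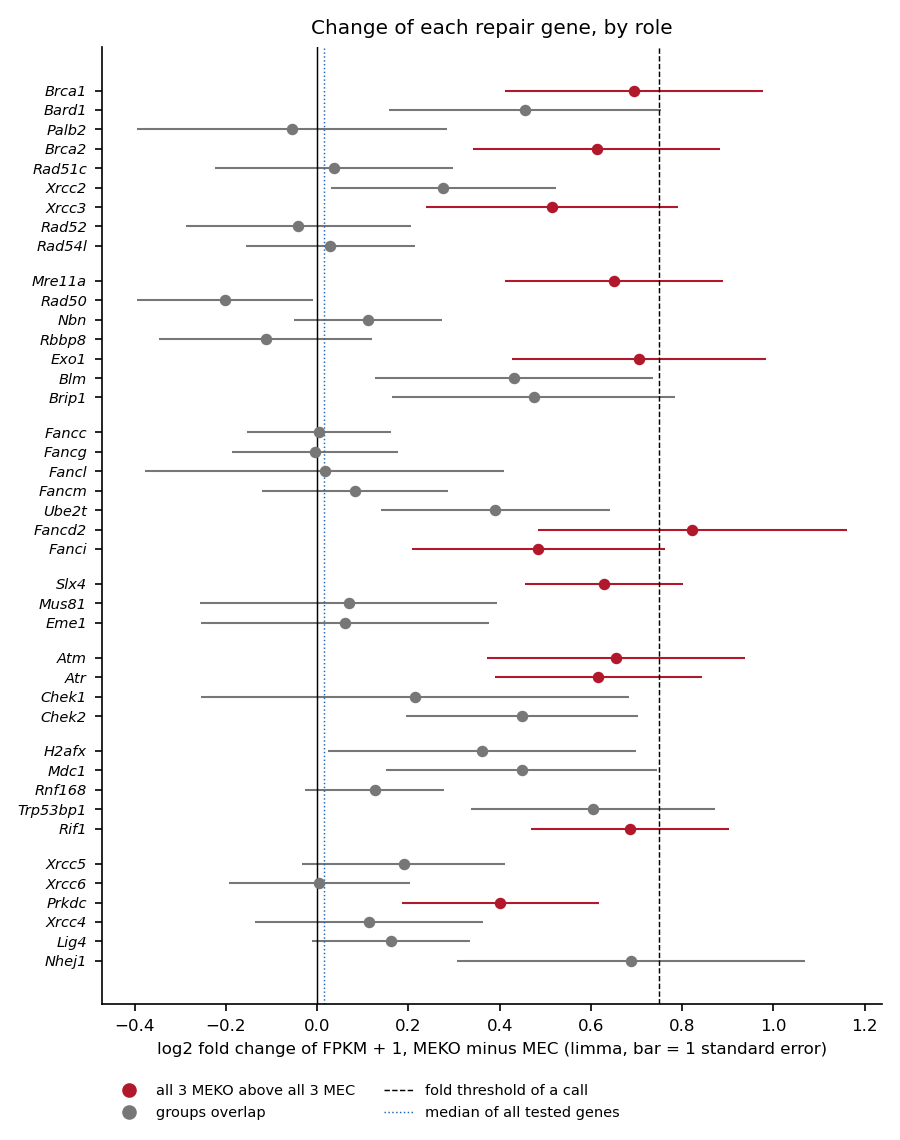
Log2 fold change of FPKM + 1 (MEKO minus MEC) of the 41 repair genes by role, with bars of 1 limma standard error. The 12 genes in red had all 3 lines above all 3 MEC libraries, and 36 of the 41 estimates lay above 0, against 51.2% of tested genes.

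In homologous recombination 7 of 9 estimates were above 0 (against 51.2% of tested genes), with a median log2 fold change of 0.28. *Brca1* (chromosome 11, 101488764 to 101551955), whose protein directs breaks to recombination, had 3.45, 3.58 and 1.58 FPKM in MEC 1, 2 and 3, and 5.91, 5.18 and 4.23 FPKM in lines 199, 233 and 336. The groups did not overlap, and MEC 3 was the lowest library by a wide margin. This gave a log2 fold change of 0.70, with a standard error of 0.28 (limma adjusted p = 0.172), which was 0.43 without MEC 3. *Brca2* (chromosome 5, 150522630 to 150570329), a mediator of homologous recombination, had 1.76, 1.52 and 0.874 FPKM in MEC and 3.58, 2.39 and 2.00 FPKM in the lines. Again each line was above each MEC library, with line 199 the highest. Its log2 fold change of 0.61 had a standard error of 0.27 (limma adjusted p = 0.201).

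Genes of the BRCA1 and BRCA2 partners were read beside them. *Bard1*, which encodes the partner of BRCA1 in its ubiquitin ligase, had 5.76, 5.78 and 2.59 FPKM in MEC and 6.70, 7.53 and 5.46 FPKM in the lines. Line 336 lay within the MEC range. *Palb2*, which encodes the bridge between BRCA1 and BRCA2, had 3.23, 3.30 and 1.2 FPKM in MEC and 3.03, 2.38 and 1.62 FPKM in the lines, all within the MEC range. *Xrcc3*, which acts in recombination, had 2.18, 2.11 and 0.829 FPKM in MEC and 2.68, 2.67 and 2.90 FPKM in the lines, without overlap. The other 4 genes, the recombination genes *Rad51c* and *Xrcc2*, the annealing factor *Rad52* and the motor protein gene *Rad54l*, overlapped between the groups with log2 fold changes from -0.04 to 0.28 and limma adjusted p values of 0.496 or more. *Rad54l* shares 15.4% of its exon bases with *Lrrc41* on the other strand, so reads of these genes may not be separable.

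Among the 7 genes of break sensing, resection and helicases, *Mre11a* and *Exo1* lay apart between the groups (28.6%, against 18.5% of tested genes). *Mre11a* (chromosome 9, 14784654 to 14837123), the nuclease of the sensor complex, had 16.2, 15.6 and 9.40 FPKM in MEC and 23.5, 23.0 and 18.6 FPKM in the lines. All lines were above all MEC libraries, and the estimate was 0.65 on the log2 scale, with a standard error of 0.24 (limma adjusted p = 0.140), and 0.42 without MEC 3. *Rad50*, which encodes the structural partner of MRE11, had 12.7, 12.8 and 12.8 FPKM in MEC and 11.4, 13.5 and 8.54 FPKM in the lines. The MEC libraries were close to each other, and lines 199 and 336 were below them while line 233 lay above. *Nbn* (chromosome 4, 15957925 to 15992589), the regulatory subunit of the same complex, had 10.3, 11.6 and 10.9 FPKM in MEC and 13.7, 11.9 and 10.3 FPKM in the lines. Its groups overlapped, and the estimate of 0.11 was smaller than its standard error of 0.16 (limma adjusted p = 0.686). It was 0.02 without line 199 and 0.21 without line 336.

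*Exo1* (chromosome 1, 175880581 to 175913489), an exonuclease that lengthens resected ends, had 3.32, 3.43 and 1.44 FPKM in MEC and 5.35, 4.63 and 4.65 FPKM in the lines. The lines were above MEC without overlap, by 0.70 on the log2 scale, with a standard error of 0.28 (limma adjusted p = 0.162). Without MEC 3 the estimate for *Exo1* was 0.42. The helicase genes *Blm* and *Brip1* were above all MEC libraries in line 199 alone, at 7.83 and 5.36 FPKM, and lines 233 and 336 lay within the MEC range. *Rbbp8*, which starts resection, had 12.6 FPKM in line 199, above all MEC libraries, and 6.96 and 8.17 FPKM in lines 233 and 336, below all of them.

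Of the 7 Fanconi genes, 2 lay apart with all lines higher (28.6%, against 18.5% of tested genes). These were the ubiquitinated pair *Fancd2* and *Fanci*, and the others overlapped between the groups. *Fancd2* (chromosome 6, 113531682 to 113597017) had 3.06, 3.34 and 1.33 FPKM in MEC and 7.54, 4.38 and 3.94 FPKM in the lines. Line 199 was the highest and MEC 3 the lowest, and the groups did not overlap. Its log2 fold change of 0.82 was the largest among the 41 with all libraries, and its standard error was 0.34 (limma adjusted p = 0.175). That rank depended on single libraries, since *Fancd2* was at 0.54 and *Trp53bp1* at 0.89 without MEC 3, and *Fancd2* was at 0.58 and *Nhej1* at 1.04 without line 199. *Fanci* (chromosome 7, 79391929 to 79450264) had 2.40, 3.03 and 1.19 FPKM in MEC and 3.22, 3.81 and 3.05 FPKM in the lines. The lowest line, 336, was barely above the highest MEC library, and the log2 fold change was 0.48 with a standard error of 0.28 (limma adjusted p = 0.300), or 0.23 without MEC 3. *Fanci* shares 16.0% of its exon bases with *Polg* on the other strand.

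*Ube2t*, which encodes the ubiquitin-conjugating enzyme of the pathway, had 11.1, 10.7 and 6.73 FPKM in MEC and 9.92, 15.3 and 12.9 FPKM in the lines, where line 199 overlapped MEC. For *Fancc*, *Fancg* and *Fancm* of the core complex the groups overlapped and the log2 fold changes were at most 0.08, with standard errors of 0.16 to 0.20. *Fancl*, the ligase subunit, had 5.97, 9.45 and 3.69 FPKM in MEC and 3.54, 8.0 and 7.63 FPKM in the lines. Its spread within each group was larger than the difference between them. *Fancl* shares 13.7% of its exon bases with *Vrk2*, and *Fancc* shares 16.4% with *Gm16133*, each on the other strand.

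The 3 genes of structure-specific nucleases, which cut joined DNA molecules, had unlike patterns. *Slx4* (chromosome 16, 3979105 to 4003770), the scaffold that binds several nucleases, had 5.32, 4.80 and 5.95 FPKM in MEC and 7.88, 8.54 and 10.1 FPKM in the lines. The groups lay well apart and MEC 3 was the highest of the MEC libraries, unlike in the genes above. The log2 fold change of 0.63 had the small standard error of 0.17 (limma adjusted p = 0.070). With quantile normalization *Slx4* passed both thresholds (log2 fold change 0.76, limma adjusted p = 0.0419), and its limma adjusted p over all alternatives lay between 0.0310 and 0.241. *Mus81* (chromosome 19, 5482345 to 5488402), a nuclease subunit, had 7.99, 7.90 and 9.26 FPKM in MEC and 6.03, 7.35 and 15.2 FPKM in the lines. Lines 199 and 233 were below all MEC libraries and line 336 was above them, so that its log2 fold change was 0.07 with all lines and -0.29 without line 336. *Eme1*, which encodes the partner of MUS81, ran the other way, with 7.77, 4.82 and 3.58 FPKM in lines 199, 233 and 336 and 3.36 to 6.0 FPKM in MEC.

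**Figure D2:**
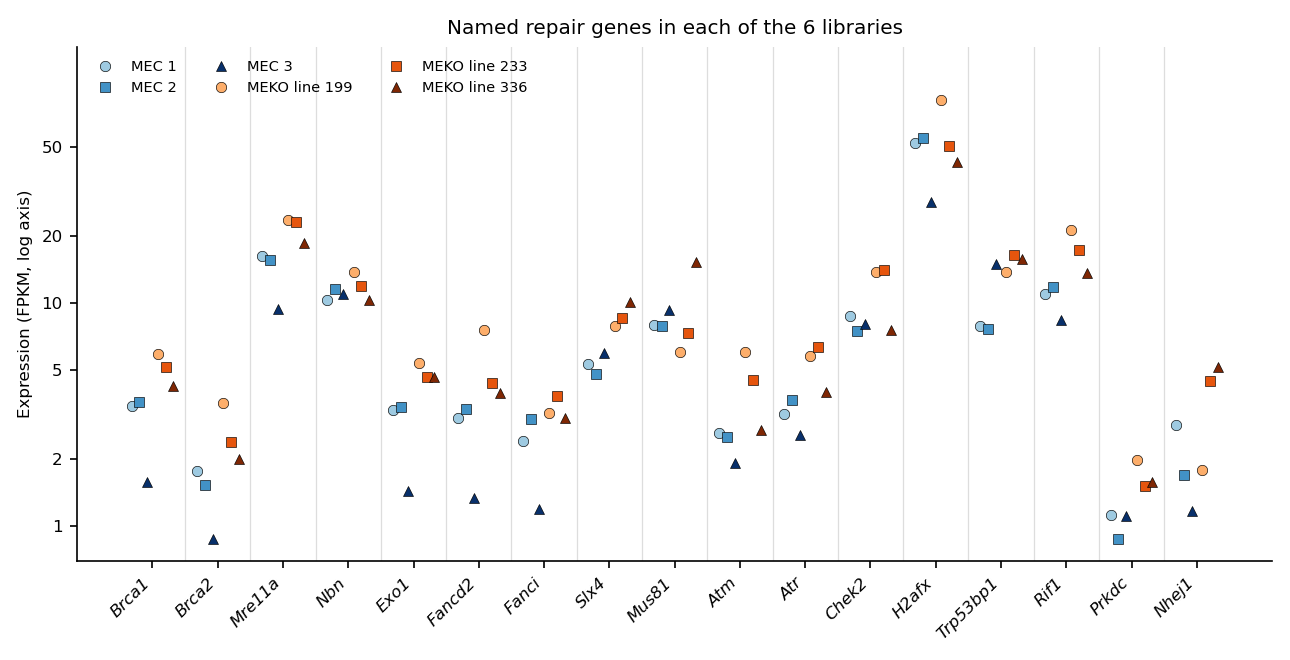
FPKM (log axis) of 17 repair genes in the 3 MEC libraries (blue) and the 3 MEKO lines (orange to brown). MEC 3 was the lowest library in *Brca1*, *Brca2*, *Exo1*, *Fancd2* and *Fanci*, and in *Slx4* and *Prkdc* the lines lay above MEC although MEC 3 was not the lowest.

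The 4 checkpoint kinases all had estimates above 0, as did 51.2% of tested genes. *Atm* (chromosome 9, 53439149 to 53536740), the kinase that answers to double-strand breaks, had 2.62, 2.49 and 1.91 FPKM in MEC and 6.05, 4.53 and 2.69 FPKM in the lines. Line 336 lay just above MEC 1, and line 199 was the highest by far. The means differed by 0.65 on the log2 scale, with a standard error of 0.28 (limma adjusted p = 0.194). *Atr* (chromosome 9, 95857597 to 95951781), the kinase of stalled replication forks, had 3.18, 3.69 and 2.55 FPKM in MEC and 5.80, 6.37 and 4.0 FPKM in the lines. The groups did not overlap, and the log2 fold change was 0.62 with a standard error of 0.23 (limma adjusted p = 0.141).

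The kinases that ATM and ATR activate overlapped between the groups. *Chek2* (chromosome 5, 110839979 to 110874145) had 8.77, 7.52 and 8.02 FPKM in MEC and 13.8, 14.1 and 7.56 FPKM in the lines. Lines 199 and 233 were above MEC, and line 336 was at its level. The log2 fold change was 0.45 with a standard error of 0.26 (limma adjusted p = 0.299), and it was 0.72 without line 336. *Chek1* had 17.9, 14.6 and 6.77 FPKM in MEC and 23.0, 15.8 and 7.91 FPKM in the lines. Its values within each group spanned more than its difference between groups.

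Genes for the chromatin around breaks again had estimates above 0, in 5 of 5 (against 51.2% of tested genes). *H2afx* (chromosome 9, 44334694 to 44336077), the histone that is phosphorylated at breaks, had 51.9, 54.7 and 28.4 FPKM in MEC and 80.8, 50.2 and 42.9 FPKM in the lines, the highest level among the 41. The groups overlapped, and the estimate of 0.36 was close to its standard error of 0.34 (limma adjusted p = 0.517). It was 0.07 without MEC 3 and 0.10 without line 199. Some of its sequence is shared with other H2A histone genes. *Rif1* (chromosome 2, 52072832 to 52122383), which restrains resection, had 10.9, 11.8 and 8.42 FPKM in MEC and 21.3, 17.3 and 13.7 FPKM in the lines. All lines were above all MEC libraries, by 0.69 on the log2 scale with a standard error of 0.22 (limma adjusted p = 0.101).

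*Trp53bp1* (chromosome 2, 121193281 to 121271407), which encodes 53BP1, the partner of RIF1 that opposes BRCA1, had 7.90, 7.66 and 14.9 FPKM in MEC and 13.8, 16.5 and 15.7 FPKM in the lines. MEC 3 stood with the lines and apart from MEC 1 and MEC 2. Its log2 fold change was 0.60 with a standard error of 0.27 (limma adjusted p = 0.201), and became 0.89 without MEC 3. With sample weights it passed both thresholds (limma adjusted p = 0.0443), and over all alternatives its limma adjusted p lay between 0.0443 and 0.460. These weights rest mostly on MEC 1, with a weight of 13.3 against 0.236 to 2.13 in the other libraries. *Trp53bp1* shares 15.0% of its exon bases with *Tubgcp4* on the other strand. *Mdc1*, which holds repair factors at phosphorylated H2AX, had 11.5 FPKM in line 199, and 4.39 to 5.94 FPKM in the other 5 libraries. *Rnf168*, the ubiquitin ligase that recruits 53BP1, had 8.83 to 11.7 FPKM over all 6 libraries.

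In end joining 6 of 6 estimates were above 0 (against 51.2% of tested genes), with a median of 0.18. The smallest was 0.005 for *Xrcc6*, with a standard error of 0.20. An unadjusted limma p under 0.05 was reached by 0 of the 6, against 12.4% of tested genes higher and 15.7% lower. *Prkdc* (chromosome 16, 15637866 to 15842235), the catalytic subunit of DNA-PK, had 1.12, 0.875 and 1.11 FPKM in MEC and 1.99, 1.51 and 1.58 FPKM in the lines. The groups did not overlap, at levels near the limit of testing. The log2 fold change was 0.40 with a standard error of 0.22 (limma adjusted p = 0.277). With quantile normalization it was 0.93 (limma adjusted p = 0.0441), past both thresholds, and the limma adjusted p lay between 0.0441 and 0.470 over all alternatives. *Nhej1* (chromosome 1, 74967139 to 75125200), a scaffold at the joined ends, had 2.83, 1.69 and 1.17 FPKM in MEC and 1.79, 4.45 and 5.15 FPKM in the lines. Line 199 lay within MEC, and lines 233 and 336 were above it. The estimate of 0.69 on the log2 scale had the larger standard error of 0.38 (limma adjusted p = 0.288), and it was 1.04 without line 199.

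The Ku genes, whose proteins form the ring that holds a broken end, varied little within MEC. *Xrcc6* had 19.3, 19.2 and 19.4 FPKM in MEC and 23.8, 20.6 and 14.8 FPKM in lines 199, 233 and 336. *Xrcc5* had 15.7, 16.5 and 16.4 FPKM in MEC and 13.8, 24.7 and 18.9 FPKM in the lines. The lines therefore spread around a narrow MEC range in both genes, and line 199 was the highest line in *Xrcc6* and the lowest in *Xrcc5*. The ligase gene *Lig4* and its cofactor gene *Xrcc4* had log2 fold changes of 0.16 and 0.11 and overlapped between groups.

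**Figure D3:**
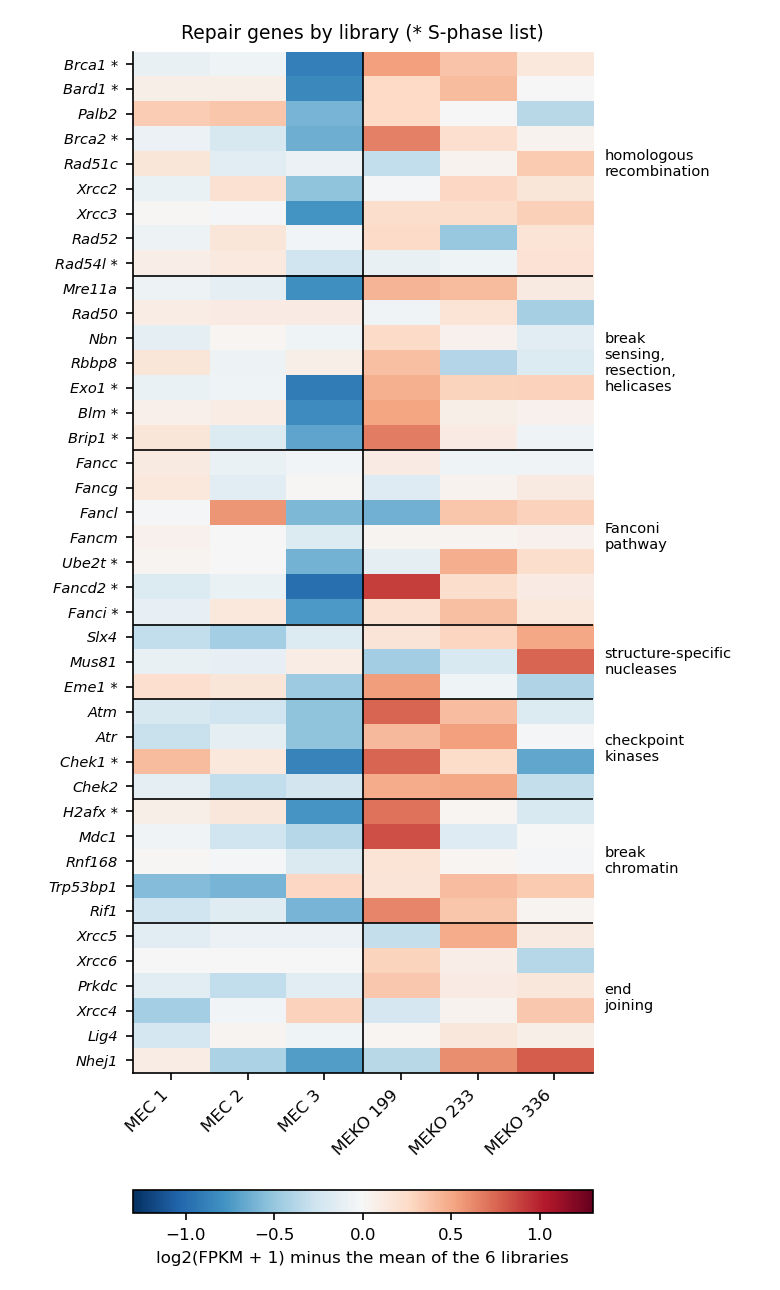
Log2(FPKM + 1) of each repair gene minus its mean over the 6 libraries, with genes in rows by role and libraries in columns. Asterisks mark the 13 S-phase genes, all of which had their lowest MEC value in MEC 3.

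A list of 13 repair genes known to be transcribed mainly in cycling cells (*Brca1*, *Brca2*, *Bard1*, *Rad54l*, *Blm*, *Brip1*, *Exo1*, *Fancd2*, *Fanci*, *Ube2t*, *Eme1*, *Chek1* and *H2afx*) was set beside the other 28. MEC 3 was the lowest MEC library in 13 of the 13, in 12 of the 28 and in 39.3% of tested genes. The list was drawn from general knowledge, but with earlier results of these data known. Relative to the mean of the 6 libraries, the median level of the 13 was 0.07, 0.08 and -0.77 in MEC 1, 2 and 3 and 0.54, 0.23 and 0.06 in lines 199, 233 and 336, on the log2 scale. The levels of MEC 1, MEC 2 and line 336 were close to each other, and MEC 3 stood alone. The same medians of the other 28 were -0.06, -0.08 and -0.16 in MEC and 0.18, 0.13 and 0.09 in the lines. Here all 3 lines were above all 3 MEC libraries, with smaller differences.

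A list of 25 genes of replication and mitosis such as *Mki67*, *Top2a* and the *Mcm* genes ran with the S-phase repair genes. Its median level was -0.03, 0.12 and -1.15 in MEC 1, 2 and 3 and 0.66, 0.21 and 0.22 in lines 199, 233 and 336. MEC 3 was the lowest MEC library in 25 of the 25 (39.3% of tested genes), and line 199 the highest MEKO library in 22 (40%). The limma test called 0 of the 25 in either direction, against 2.64% of tested genes higher and 7.26% lower. At an unadjusted limma p under 0.05, 6 of the 25 were higher and 0 were lower, against 12.4% and 15.7% of tested genes. The median log2 fold change was 0.72 for the 25 proliferation genes, 0.46 for the 13 S-phase repair genes and 0.14 for the other 28. Without MEC 3 these medians were 0.27, 0.18 and 0.15, and the median over all 41 fell from 0.36 to 0.17. Estimates above 0 then numbered 10 of 13 and 22 of 28, against 6560 of 12461 tested genes. Without MEC 3, 13 of the 41 had all lines above MEC 1 and MEC 2, against 23.2% of tested genes, and these were the 12 named above and *Trp53bp1*. The part of the proliferation genes in the levels of the repair genes was not tested.

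**Figure D4:**
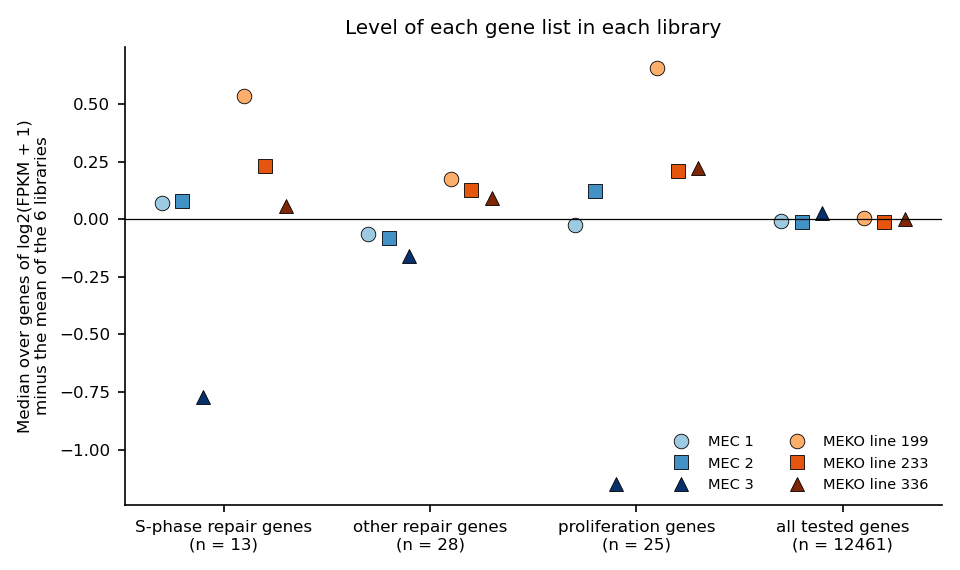
Median over the genes of a list of log2(FPKM + 1) minus the mean of the 6 libraries, for 13 S-phase repair genes, 28 other repair genes, 25 proliferation genes and all 12461 tested genes. MEC 3 was at -0.77 for the S-phase repair genes and at -1.15 for the proliferation genes, and the median of all tested genes stayed near 0.

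The lines were also compared with MEC singly. Line 199 was above all 3 MEC libraries in 25 of the 41 repair genes (40.2% of tested genes) and below all of them in 6 (39.1%). Line 233 was above in 24 (37.4%) and below in 3 (37.9%). Line 336 was above in 23 (39.2%) and below in 4 (37.4%). Lines 199, 233 and 336 differed from the MEC mean by a median of 0.44, 0.35 and 0.24 on the log2 scale. Each line is 1 library, so no test was made of a single line. Line 199 was the highest line in 21 of the 41, with 6 of 7 genes of sensing, resection and helicases among them, against 40% of tested genes. Line 336 was the highest in 9, which included *Slx4*, *Mus81* and *Nhej1*.

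Since FPKM is per length, partner genes can be set side by side within a library. Of 12 pairs, 3 had ratios without overlap between the groups. The share over other pairs of genes was not computed. Of single tested genes, 18.5% lay apart with all lines higher and 18.7% with all lines lower. The ratio of *Brca1* to *Bard1* was 0.60, 0.62 and 0.61 in MEC and 0.88, 0.69 and 0.77 in lines 199, 233 and 336. This ratio was the same in MEC 3 as in the other MEC libraries, although both genes were lowest there. The ratio of *Mre11a* to *Rad50* was 1.28, 1.21 and 0.73 in MEC and 2.06, 1.70 and 2.17 in the lines. The ratio of *Palb2* to *Brca2* was 1.84, 2.17 and 1.38 in MEC and 0.85, 1.00 and 0.81 in the lines, so that *Palb2* exceeded *Brca2* in each MEC library and in no line. For each of these 3 pairs the exact permutation test (two-sided) gave p = 0.1, the smallest possible, and an adjusted p of 0.34 over the 12 pairs. Any ratio without overlap gives this smallest p, so the test adds nothing to the separation. The differences of the mean log2 ratio, MEKO minus MEC, were 0.35, 0.91 and -1.0.

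**Figure D5:**
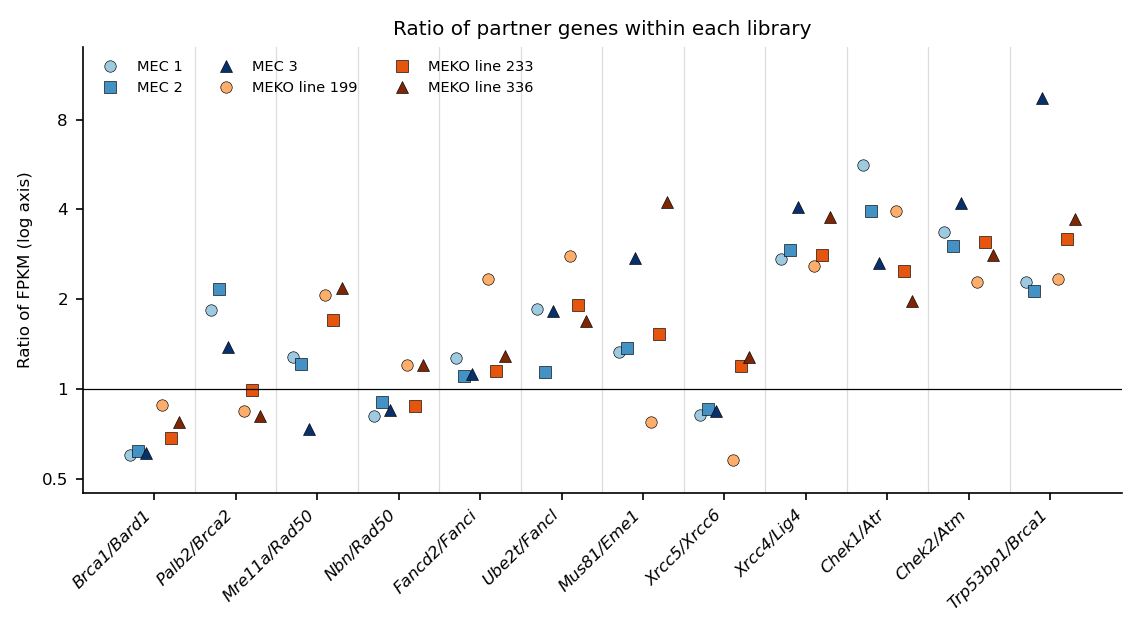
Ratio of the FPKM of 12 pairs of partner genes within each library (log axis), with MEC in blue and the MEKO lines in orange to brown. The ratios of *Brca1* to *Bard1* and of *Mre11a* to *Rad50* were higher, and that of *Palb2* to *Brca2* lower, in each line than in each MEC library.

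In the other 9 pairs the groups overlapped, with exact permutation p values from 0.2 to 1. The Ku pair, *Xrcc5* to *Xrcc6*, had ratios of 0.82, 0.85 and 0.84 in MEC and 0.58, 1.2 and 1.28 in lines 199, 233 and 336. MEC varied little, and line 199 lay below it while lines 233 and 336 lay above. *Mus81* to *Eme1* gave 0.78, 1.52 and 4.24 in the lines and 1.33 to 2.76 in MEC. *Trp53bp1* to *Brca1*, whose proteins oppose each other in the choice of repair, gave 2.29, 2.14 and 9.45 in MEC and 2.33, 3.18 and 3.71 in the lines. The outlying ratio of 9.45 was in MEC 3, where *Brca1* was at its lowest and *Trp53bp1* at its highest within MEC.

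Genes near each repair gene were examined because copy number can differ between tumor lines. For *Brca2*, the 24 other tested genes that start within 5 Mb had median log2 differences from MEC of 0.63, 0.25 and 0.31 in lines 199, 233 and 336, and *Brca2* itself had 0.96, 0.53 and 0.35. Neighbours and gene were shifted in the same direction in each line. For *Atr* the 32 neighbours had -0.20, -0.27 and -0.40, and *Atr* itself had 0.72, 0.84 and 0.28. The 157 neighbours of *Brca1* were near 0 in line 233 and had 0.06 and -0.14 in lines 199 and 336, against 0.72, 0.88 and 0.48 for *Brca1* in lines 233, 199 and 336. For *Slx4* the 34 neighbours had 0.05, 0.05 and 0.26, against 0.49, 0.59 and 0.81. Copy number itself was not analysed here, and its part was not tested.

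A further 69 genes of the same pathways, taken from general knowledge, were read in the same way, and 64 of them were tested. *Rad54b*, *Rnf8*, *Bre*, *Atrip* and *Tonsl* were on entries joined with other genes, so their values may hold fragments of those genes. The limma test called 1 of the 64 higher and 0 lower, against 2.64% and 7.26% of tested genes. At an unadjusted p under 0.05, 11 were higher (17.2%) and 1 was lower (1.56%), against 12.4% and 15.7% of tested genes. *Rev1*, a polymerase that copies past damaged bases, had 4.28, 4.14 and 4.63 FPKM in MEC and 8.77, 14 and 13.1 FPKM in the lines. Its groups lay far apart, by 1.25 on the log2 scale with a standard error of 0.21 (limma adjusted p = 0.018). The median log2 fold change of the 64 was 0.15, with 42 above 0 and 22 below. In 16 all lines lay above MEC (25.0%) and in 4 they all lay below (6.25%), against 18.5% and 18.7% of tested genes.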

How the data were processed

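Per the labels and the study's methods, the authors trimmed paired-end reads, aligned them to GRCm38 (mm10) with Bowtie2 and TopHat2 (version 2.0.14) and quantified genes with Cufflinks (version 2.2.1). The deposited table holds the resulting FPKM of each gene in each of 6 libraries, which the authors scaled to gene length and to the mapped fragments of the library. The annotation and strand setting are not given in the sources used here, and depth is unknown, so no counting interval was computed. The Cuffdiff comparison needs alignments and was not repeated.

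Groups came from the labels (3 MEC, 3 MEKO). Genes with a mean of at least 1 FPKM were tested on log2(FPKM + 1) with limma 3.58.1 in R 4.3.3 (mean-variance trend, two-sided, Benjamini-Hochberg over 12461 genes), and the script was tested on simulated data. Calls needed an adjusted p under 0.05 and a log2 fold change beyond 0.75, and 2 entries without values were left out. Single genes and 12 ratios had exact permutation tests. Positions and overlaps came from GENCODE M21 and promoters from RefSeq.

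The 41 genes and all lists were chosen with earlier results of these data known. The genes named by a rule were, in each of 7 roles, the 2 with the largest absolute log2 fold change, *Brca1*, *Brca2*, *Atm*, *Chek2*, *Nbn* and *H2afx*, and called genes of the other pathway list. Other repair genes, some of them also given with all their values, were named after their values were seen.

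Alternatives were a pseudocount of 0.1, a minimum mean of 0 or 5 FPKM, quantile normalization, upper-quartile scaling, no trend, sample weights, no fold threshold and each library left out. Their use on the counts of genes apart, the S-phase list, the other 28 genes and the proliferation genes was chosen after seeing the data.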

Additional observations from a re-analysis of the deposited data

How the results depend on the processing

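The count of 0 repair genes called lower held under each of the 14 alternatives, and that of 0 called higher changed to 2 with quantile normalization and to 1 with sample weights. Over all tested genes the count called higher was 329, and it became 477 with quantile normalization and 600 with sample weights. The count called lower was 905 and became 501 with a filter at a mean FPKM of 5 and 1378 with sample weights. Leaving out 1 library gave 49 to 546 higher and 251 to 1340 lower genes, the lowest in both without MEC 1. The median log2 fold change of the 41 genes was 0.36, and it was 0.16 with the filter at 5, where 24 genes remained, 0.20 with sample weights, 0.53 with quantile normalization, and 0.17 (without MEC 3) to 0.47 (without MEC 1) with a library left out. For the 28 genes outside the S-phase list it was 0.14, 0.21 with sample weights, 0.45 with quantile normalization and 0.15 to 0.28 with a library left out. For the 13 S-phase genes it was 0.46 and between 0.18 (without MEC 3) and 0.62 (quantile normalization). Quantile normalization moved the median of all genes from 0.01 to 0.10, and the count of repair genes with all lines above MEC from 12 to 19, against 24.1% of tested genes. Leaving out 1 library gave 13 to 17 such genes, while the share of tested genes rose from 18.5% to between 20.3% (without MEC 1) and 26% (without line 199). Estimates above 0 numbered 36 of the 41. They numbered 29 with sample weights, 38 with quantile normalization, 32 without MEC 3 and 32 without line 336. Over all 12461 tested genes they numbered 6381, and in the same order 6467, 7204, 6560 and 6246. The log2 fold change of *Mus81* was -0.29 without line 336 and up to 0.31 (without line 199) with another library left out. Of 212 values of the 17 named genes under their alternatives, 208 kept their direction and side of the threshold. The log2 ratio of *Palb2* to *Brca2* (MEKO minus MEC) was -1.0 and became -0.67 with 1 FPKM added to both. Except where the alternative leaves out genes or libraries, the cause was not tested. No paired analysis was possible because the MEC and MEKO labels share no replicate number. Read numbers are unknown, so the counting error of each FPKM is not known.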
